A study of Mus musculus with 6 samples.

Results

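The genes described here are the developmental patterning transcription factors and cofactors of the Hox clusters and of the families of Dlx5, Msx1, Pax2, Six4, Eya1, Meis1, Pbx3, Lhx2, Tbx1 and Irx3. They were taken by symbol alone: every row of the count table named Hoxa to Hoxd plus a number, or 1 of the other 10 family names followed directly by digits. That gave 101 of 30438 rows, of which 47 were expressed, meaning 10 or more counts in at least 3 of the 6 libraries. Another 34 rows had 0 counts in all 6 libraries, and 20 had some counts but fell short of the limit. RNA came from HEI-OC1, a conditionally immortalised line made from the organ of Corti of a mouse, which the labels call a cochlear stem cell. The 2 groups were 3 libraries with genotype Nrf2 knockout and 3 libraries with genotype WT, the parental HEI-OC1, called control below. Both were grown at 33 °C and 10% CO2 in DMEM with 10% serum, penicillin and streptomycin, and no drug is recorded. The labels do not say where the knockout edit lies, whether that line is 1 clone, or whether replicates were separate cultures, so p-values measure the spread between these libraries, which may be technical.

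Homeodomain, paired-domain and T-box proteins bind short DNA sequences and assign position and identity to embryonic tissue. Hox genes lie in clusters and are used in the order of their numbers, low numbers towards the head and high numbers towards the tail, and HOX proteins bind DNA together with PBX and MEIS partners of the TALE homeodomain class. In the ear, Pax2, Pax8 and Eya1 act in the placode and otic vesicle, Dlx5 helps to pattern the vestibular part, and Tbx18 marks the mesenchyme around the otic capsule in mouse.

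Library totals lay between 29130007 and 51285343 counts. Levels are given as CPM, counts scaled to the size of the library by TMM, and a member was called at an adjusted p under 0.05 by edgeR's quasi-likelihood test over all 14618 genes that passed the count filter. Nfe2l2, the gene that encodes NRF2, had 396, 236 and 205 CPM in replicates 1, 2 and 3 labelled Nrf2 KO, against 74.2, 126 and 96.7 CPM in control replicates 1, 2 and 3, so the transcript was higher, not lower, in the libraries that carry the knockout label, and the groups did not overlap. Its log2 fold change of 1.49 (SE 0.33, adjusted p = 0.0456) passed without Nrf2 KO replicate 1 but not without any 1 of the other 5 libraries. Gene counts cannot test an edit that alters only the protein, and directions below are those of the libraries labelled Nrf2 KO. Replicate 1 of both groups stood apart from the rest, on a component with 41.2% of the variance of log2 CPM. The replicate 1 libraries deviated together, while numbers 2 and 3 could not be matched between the groups from the counts. Each result is given with the replicate number as a block where that changes a call, and calls made only with that block rest on an assumed pairing.

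Markers of the cell types the line could hold were read from lists. On group alone edgeR called 4.83% of all tested genes higher and 3.45% lower, or 10.4% and 7.92% with the replicate block. Of 14 hair cell markers in the table, 5 were at 0 in all 6 libraries, Atoh1 and Slc26a5 among them, and the list summed to 62.8 to 76.5 CPM in libraries labelled Nrf2 KO and 33.4 to 45.5 CPM in control, with 1 of 2 tested higher. The 15 supporting cell markers, of which Sox2 alone was at 0, summed to 409.9 to 509 CPM in libraries labelled Nrf2 KO and 421 to 476 CPM in control, with 1 of 6 tested higher, or 2 with the replicate block. The 12 fibroblast and otic mesenchyme markers summed to 10417 to 13328 CPM in the libraries labelled Nrf2 KO and 12410 to 12584 CPM in control, with 5 of 10 tested markers higher and 0 lower, or 7 and 0 with the block. With both replicate 1 libraries left out, 8 were higher and 2 lower, where 24.0% and 22.1% of all genes were. Epithelial markers summed to 5.44 to 7.79 CPM in libraries labelled Nrf2 KO and 0.922 to 1.91 CPM in control, with Krt8 and Krt18 at 0 and the 1 tested gene higher. Endothelial and pericyte markers summed to 23.1 to 24.0 CPM in libraries labelled Nrf2 KO and 38.1 to 42.7 CPM in control, with 1 of 4 tested higher and 2 lower, or 1 and 3 with the block. Neuron and glia markers summed to 11.7 to 19.8 CPM in libraries labelled Nrf2 KO and 20.3 to 28.1 CPM in control, with 1 of 5 tested lower. Sums of melanocyte and stria markers and of leukocyte markers overlapped between the groups, with 0 of 3 melanocyte and stria genes called and 1 of 2 leukocyte genes lower. The part of any of these in the results below was not tested.

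Among the 47 expressed members, all of which could be tested, 4 rose in the libraries labelled Nrf2 KO, among them Dlx5, Meis1 and Hoxa4, and 0 fell, where 4.83% of all tested genes were called higher and 3.45% lower. In either direction that was 8.51% of the members and 8.28% of all tested genes, so the share called was near that of all genes. At an unadjusted p under 0.05 edgeR gave 10 members higher and 3 lower, where 13.4% and 11.6% of all genes were. DESeq2 called 7 and 0 of the same 47 at an adjusted p under 0.05, where 8.25% and 6.43% of the genes it tested were called, and limma-voom 4 and 0, where 5.14% and 4.12% were. The members' median log2 fold change was 0.00, with 24 positive and 23 negative values, beside a median of 0.04 over all genes. With the replicate block 8 members were higher and 3 lower, where 10.4% and 7.92% of all genes were called. The added members were Lhx9, Pax9, Msx1 and Tbx19, higher, and Hoxb3, Meis3 and Tbx2, lower. Of these, DESeq2 on group alone also called Lhx9 (adjusted p = 0.0089) and Pax9 (adjusted p = 0.0151), and not the others. The 3 libraries labelled Nrf2 KO all lay above the 3 control libraries for 13 members and all below for 4, where each holds for 17.1% of all genes. Among these, Dlx5 met the limit for expression only through the libraries labelled Nrf2 KO, and Hoxb7 and Lhx8 only through control. For these members the lack of overlap follows from that limit.

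**Figure D1:**
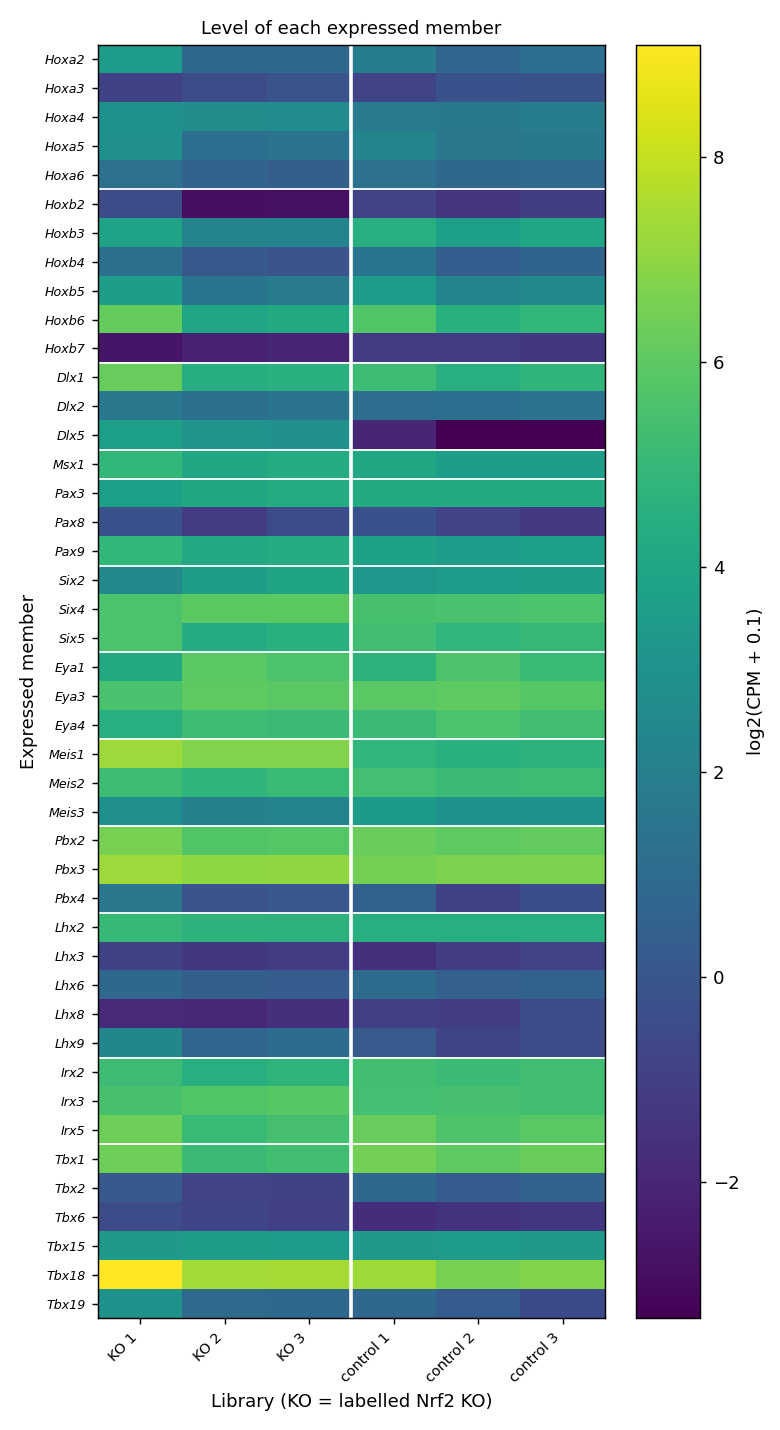
Level of 44 of the 47 expressed members in each library as log2(CPM + 0.1), by family, with the 3 libraries labelled Nrf2 KO left of the white line and the 3 control libraries right of it. The colour of Dlx5 and Meis1 differs between the groups in every library, while Hoxa2, Hoxb6, Dlx1 and Tbx18 are brightest in replicate 1 labelled Nrf2 KO.

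**Figure D2:**
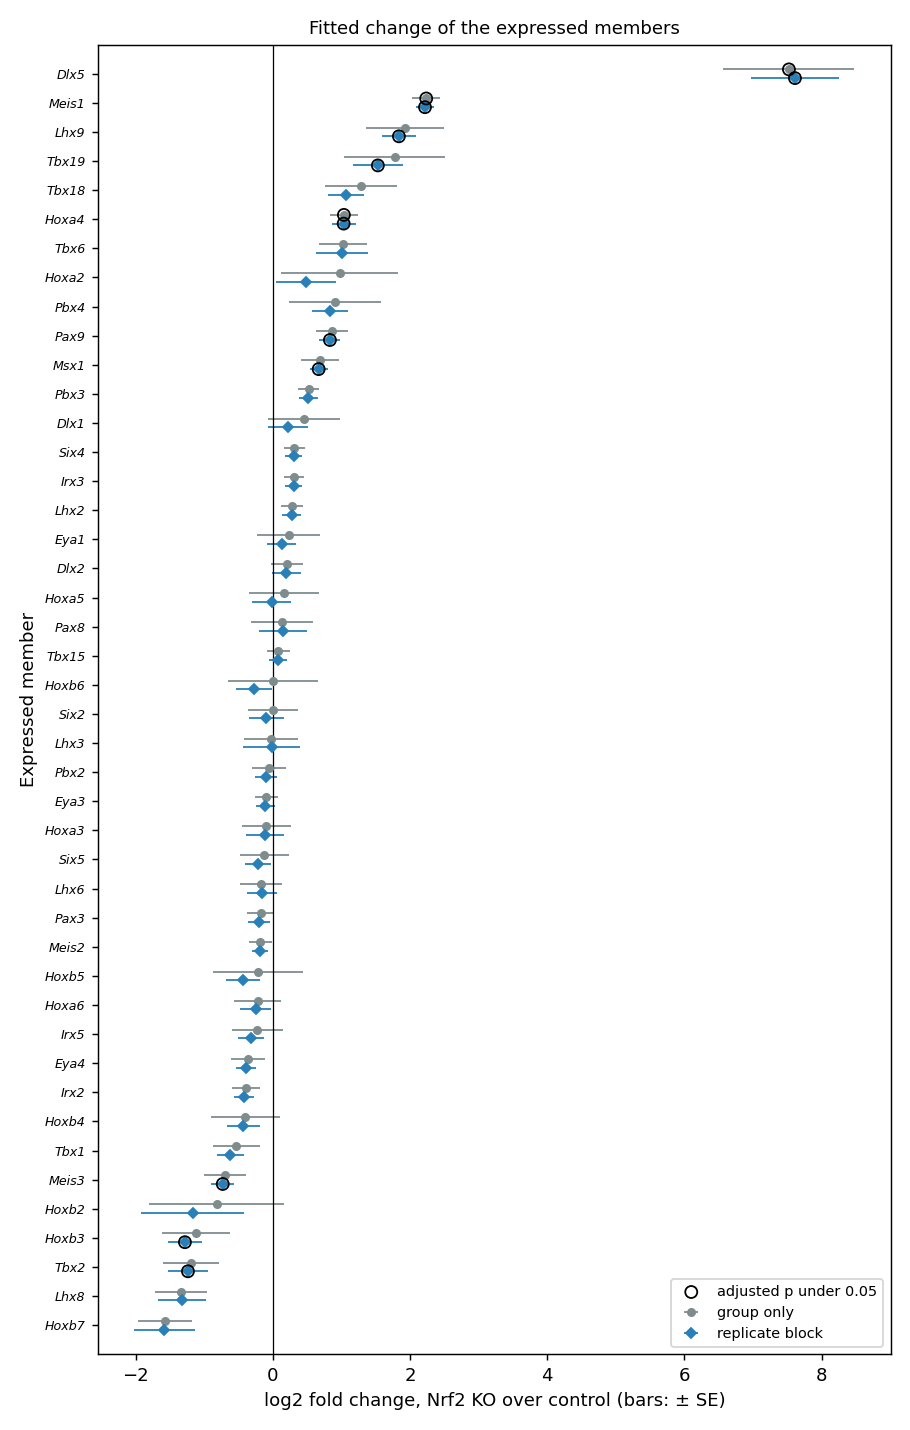
Fitted log2 fold change of 44 expressed members, libraries labelled Nrf2 KO over control, with bars of ± SE for the fit on group alone (grey circles) and with the replicate block (blue diamonds). Black rings mark an adjusted p under 0.05: 3 of the members drawn in the first fit and 10 in the second.

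Dlx5, a distal-less homeobox gene of the otic vesicle, jaw and bone, had the widest separation. It had 400, 424 and 313 counts in replicates 1, 2 and 3 labelled Nrf2 KO, against 6, 0 and 0 in control replicates 1, 2 and 3. Those counts correspond to 12.8, 8.63 and 7.61 CPM against 0.153, 0 and 0 CPM. The gene was thus present in every library labelled Nrf2 KO and all but absent from the control libraries, with 2 of the 3 at 0. It met the limit for expression only through the libraries labelled Nrf2 KO. The fitted log2 fold change came to 7.52 (SE 0.96, adjusted p = 0.00851), and 7.61 (SE 0.65, adjusted p = 0.00583) with the replicate block. Its size rests on the 6 counts of control replicate 1, without which control is at 0 and no fold is given, and the call was lost without control replicate 3 (adjusted p = 0.0548). In bulk RNA, more cells that express a gene and more RNA per cell cannot be told apart. Dlx6, which lies beside Dlx5 in the mouse genome and often shares its expression there, was listed at 0 in all 6 libraries.

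The other Dlx genes did not pass. Dlx1, a regulator of forebrain interneurons and of the branchial arches, had 74.6, 20.9 and 23.2 CPM in libraries labelled Nrf2 KO, against 36.3, 23.0 and 27.5 CPM in control. Its level in replicate 1 labelled Nrf2 KO was far above the other 5 libraries, whose ranges overlap, and the adjusted p was 0.669. Dlx2, which lies next to Dlx1, stayed between 2.12 and 3.00 CPM in all libraries. Msx1, a homeobox gene of tooth and craniofacial mesenchyme, had 29.4, 16.9 and 19.6 CPM in libraries labelled Nrf2 KO, against 17.3, 11.9 and 11.8 CPM in control. Only control replicate 1 reached into the range of the libraries labelled Nrf2 KO. Its log2 fold change came to 0.68 (SE 0.28, adjusted p = 0.195) on group alone and 0.67 (SE 0.13, adjusted p = 0.0307) with the replicate block.

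Among the TALE partners of HOX proteins in these families, Meis1 was the member called on group alone. Meis1, a DNA-binding cofactor of HOX and PBX proteins, had 154, 107 and 106 CPM in replicates 1, 2 and 3 labelled Nrf2 KO, against 28.4, 23.8 and 25.7 CPM in control replicates 1, 2 and 3, a mean of 122 ± 27.1 against 26.0 ± 2.35 CPM (SD, n = 3 each). Every library labelled Nrf2 KO was above every control library, with no overlap. Its log2 fold change came to 2.24 (SE 0.20, adjusted p = 0.00344). This was the only expressed member called in each of the 6 fits that left out a library, with adjusted p between 0.000207 and 0.0373. Meis2, a close paralogue, had 37.8, 27.8 and 34.0 CPM in libraries labelled Nrf2 KO, against 41.5, 34.9 and 36.4 CPM in control, and the groups overlapped. Meis3, the third paralogue, had 7.76, 4.26 and 4.54 CPM in libraries labelled Nrf2 KO, against 10.8, 7.92 and 8.04 CPM in control. The groups just failed to touch for Meis3, whose log2 fold change came to -0.69 (SE 0.30, adjusted p = 0.221) on group alone and -0.73 (SE 0.17, adjusted p = 0.0434) with the replicate block.

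By the authors' deposited table of group FPKM, a level per transcript length with no value per library, Meis1 stood at 38.5 and 8.16 FPKM in the groups labelled Nrf2 KO and control, Meis2 at 8.98 and 10.0 and Meis3 at 2.28 and 3.65. Meis1 was therefore the highest of the 3 by FPKM in the group labelled Nrf2 KO, while Meis2 was the highest in control. Pbx3, a TALE partner of HOX proteins and the highest Pbx gene, had 156, 127 and 133 CPM in libraries labelled Nrf2 KO, against 90.0, 101 and 98.4 CPM in control. All libraries labelled Nrf2 KO were above control, but the log2 fold change of 0.52 (SE 0.15, adjusted p = 0.0895) did not pass, and DESeq2 gave an adjusted p of 0.0226. Pbx2 had 92.0, 52.0 and 56.7 CPM in libraries labelled Nrf2 KO, against 75.1, 64.8 and 68.1 CPM in control, with overlapping groups. Pbx4 lay between 0.427 and 2.94 CPM, with an adjusted p of 0.471.

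Of 6 tested TALE and related homeodomain cofactors outside these families, 0 passed on group alone. With the replicate block 1 was higher and 2 lower, where 10.4% and 7.92% of all genes were called. Pknox1, a TALE protein that pairs with PBX, had 90.4, 66.4 and 67.8 CPM in libraries labelled Nrf2 KO, against 47.0, 45.6 and 44.8 CPM in control. Its groups did not overlap, and its log2 fold change came to 0.71 (SE 0.17, adjusted p = 0.0526) on group alone and 0.70 (SE 0.13, adjusted p = 0.0293) with the block.

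By the limit of 10 counts in at least 3 libraries, Hox expression was confined to the low and middle numbers of 2 clusters. Of 39 Hox rows, 12 were expressed, 6 in the Hoxa cluster, with no gene numbered above Hoxa6, and 6 in the Hoxb cluster, Hoxb2 to Hoxb7 without a gap. None of the 9 Hoxc and 9 Hoxd rows and no Hox gene numbered 8 or above passed the limit. A count of 0 allows a level of up to 3 counts, which corresponds to 0.0611 to 0.0958 CPM in these libraries, and a row at 0 can also be a gene model that took no reads. Kdm6a, a histone demethylase that most cells express, was likewise listed at 0 in all 6 libraries. Just outside the limit, Hoxb8 had 0, 0 and 3 counts in the libraries labelled Nrf2 KO and 6, 10 and 22 in control. Hoxc11, a gene of posterior position, had 35, 7 and 9 counts in the libraries labelled Nrf2 KO and 0, 0 and 0 in control, so it was seen in 1 group only, and it was below the count filter of the test. Just inside the limit, Hoxb2 had 19, 2 and 2 counts in the libraries labelled Nrf2 KO and 19, 12 and 15 in control.

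**Figure D3:**
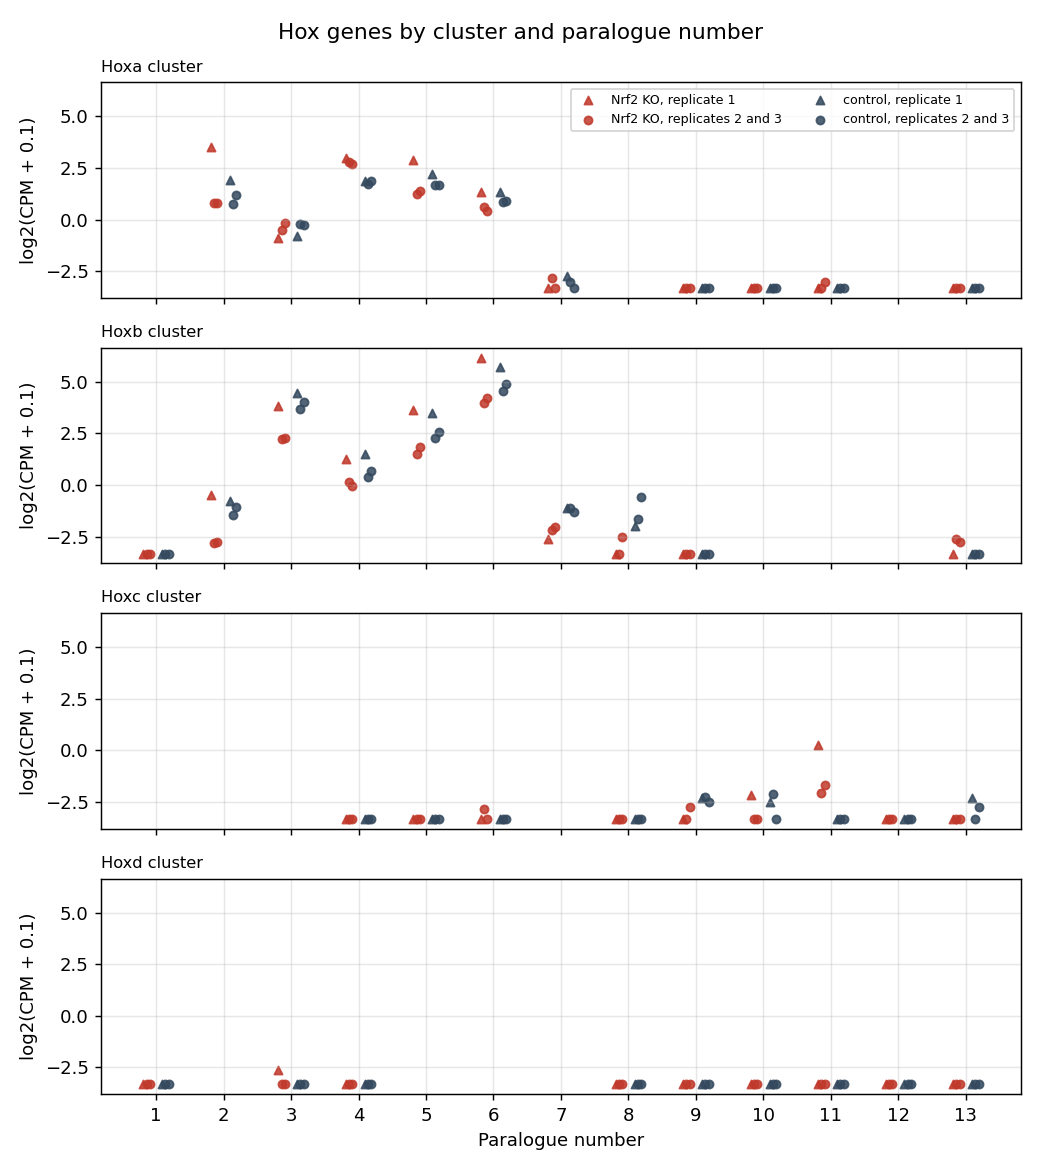
Level of Hox genes in each library as log2(CPM + 0.1), against its paralogue number, with 1 panel per cluster, libraries labelled Nrf2 KO in red left of control in dark blue, and replicate 1 as triangles. The points of Hoxb3 to Hoxb6 lie above those of the other Hoxb genes, Hoxa genes numbered above 6 stay near the floor, and the replicate 1 triangles lie above the circles of their own group for Hoxb3 to Hoxb6.

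Within the Hoxa cluster, Hoxa4, a gene of the neck and upper trunk, was higher in the libraries labelled Nrf2 KO. It had 7.88, 6.80 and 6.34 CPM in replicates 1, 2 and 3 labelled Nrf2 KO, against 3.52, 3.17 and 3.56 CPM in control replicates 1, 2 and 3. The replicates were tight and the groups did not overlap, with a log2 fold change of 1.04 (SE 0.20, adjusted p = 0.0288). The call was lost without any 1 of Nrf2 KO replicates 2 and 3 and control replicates 1, 2 and 3, where the adjusted p reached 0.165. Those fits kept 195 to 379 of the 1211 calls over all genes. Hoxa4 passed without Nrf2 KO replicate 1 and with the replicate block. Its log2 fold change without 1 library ran from 0.94 to 1.10.

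Hoxa2, Hoxa3, Hoxa5 and Hoxa6 did not pass. Hoxa2, which sets the identity of the second branchial arch, had 11.4, 1.65 and 1.68 CPM in libraries labelled Nrf2 KO, against 3.70, 1.57 and 2.19 CPM in control. Replicate 1 was the highest library of each group, and the groups overlapped. Hoxa5, a gene of the neck and lung, had 7.34, 2.24 and 2.55 CPM in libraries labelled Nrf2 KO, against 4.57, 3.08 and 3.15 CPM in control, also with overlap. Hoxa3 and Hoxa6 had log2 fold changes of -0.10 (SE 0.36) and -0.22 (SE 0.34), and neither passed. No source used here says whether the counting used strand, so reads of overlapping and antisense transcripts, which are common in Hox clusters, cannot be separated.

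In the Hoxb cluster 0 of 6 genes passed on group alone and 1, Hoxb3, was lower with the replicate block. Hoxb3, a hindbrain and neck gene, had 13.9, 4.66 and 4.74 CPM in replicates 1, 2 and 3 labelled Nrf2 KO, against 21.9, 12.6 and 16.2 CPM in control replicates 1, 2 and 3. Replicate 1 labelled Nrf2 KO reached into the control range, while replicates 2 and 3 were below all control libraries. Its log2 fold change came to -1.13 (SE 0.50, adjusted p = 0.227) on group alone and -1.28 (SE 0.25, adjusted p = 0.0320) with the block. Hoxb6, the highest Hox gene of the line by FPKM at 16.1 and 15.9 FPKM in the groups labelled Nrf2 KO and control in the authors' deposited table, had 72.4, 15.5 and 18.3 CPM in libraries labelled Nrf2 KO, against 52.6, 23.1 and 30.1 CPM in control. Its 2 highest libraries were the replicate 1 libraries of both groups, and the log2 fold change of 0.00 (SE 0.66) turned to -0.28 (SE 0.26) with the block, neither of which passed. Hoxb5 had 12.4, 2.75 and 3.48 CPM in libraries labelled Nrf2 KO, against 11.1, 4.70 and 5.78 CPM in control, with the same order of libraries within each group. Hoxb4 and Hoxb2 were highest in replicate 1 of each group too. Hoxb7 had 0.0638, 0.122 and 0.146 CPM in libraries labelled Nrf2 KO, against 0.357, 0.360 and 0.309 CPM in control, and its groups did not overlap, at 2 to 6 counts against 12 to 16, with an adjusted p of 0.0640. It met the limit for expression only through the control libraries, so that lack of overlap follows from the limit.

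Summed over its 6 expressed genes, the Hoxb cluster stood at 101.7, 24.1 and 27.5 CPM in replicates 1, 2 and 3 labelled Nrf2 KO, and at 89.3, 42.3 and 54.3 CPM in control. Replicate 1 was the highest library of its group in this sum. When both replicate 1 libraries were left out, 4 of the 6 Hoxb genes were called lower (Hoxb2, Hoxb3, Hoxb5 and Hoxb6) and 0 higher. That fit, on 2 libraries a group, called 24.0% of all genes higher and 22.1% lower, and among all 47 members it called 12 and 12.

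The excess of replicate 1 was shared by most members and by both groups. Of 46 members with a ratio in each group, 27 were higher in replicate 1 than in the mean of replicates 2 and 3 in both groups and 10 were lower in both, where 39.7% and 41.3% of all tested genes were. The ratio exceeded 1.5 in both groups for 10 members, or 21.7%, against 8.92% of all tested genes. These included Hoxa2, Hoxb3, Hoxb4, Hoxb5, Hoxb6, Lhx9, Pbx4 and Tbx18. Hoxb6, for example, was 4.29 times as high in replicate 1 as in the other libraries labelled Nrf2 KO and 1.98 times in control. Eya1 went the other way, at 0.342 times in the libraries labelled Nrf2 KO and 0.606 times in control. The labels do not say what a replicate number marks, these ratios rest on 1 library against 2 with no test, and genes of 1 library are not independent.

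**Figure D4:**
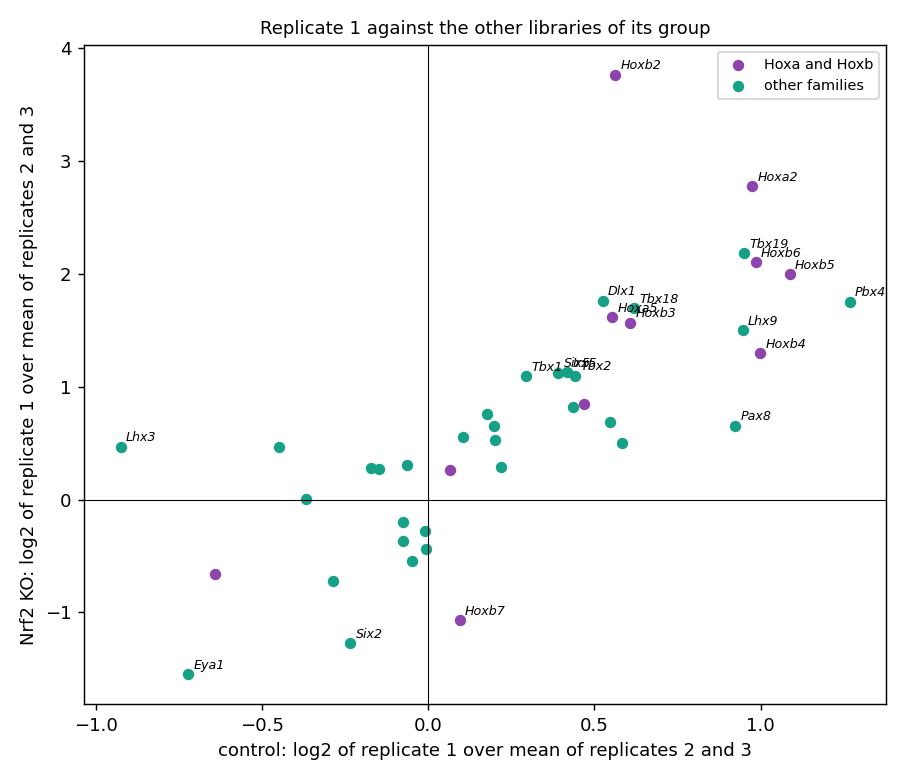
For 43 tested members, the log2 ratio of replicate 1 to the mean of replicates 2 and 3 among the libraries labelled Nrf2 KO (vertical) and among control (horizontal), with Hoxa and Hoxb genes in purple; Dlx5 is left out since control replicates 2 and 3 are at 0. Most points lie at the upper right, with a ratio above 1 in both groups for 27 of the 43 members shown, and Eya1 at the lower left.

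Pax2 and Eya1 belong to the network that drives formation of the otic placode. Eya1, a phosphatase and coactivator of homeodomain factors, had 18.4, 59.3 and 48.3 CPM in libraries labelled Nrf2 KO, against 25.0, 48.6 and 33.9 CPM in control, with overlap, and its adjusted p was 0.819. Eya4, mutated in a hereditary human deafness, had 21.9, 37.3 and 34.7 CPM in libraries labelled Nrf2 KO, against 35.1, 46.9 and 38.7 CPM in control, and Eya3 had 45.5, 63.6 and 59.8 CPM in libraries labelled Nrf2 KO, against 60.0, 63.7 and 56.8 CPM in control. Neither passed, and Eya2 had 7 counts in all libraries together. Six4 had 48.4, 61.9 and 62.7 CPM in libraries labelled Nrf2 KO, against 44.8, 46.6 and 48.0 CPM in control, and its groups did not overlap although its adjusted p was 0.278. Six2 and Six5 overlapped between the groups, with adjusted p of 0.998 and 0.879. With both replicate 1 libraries left out, Six4 was called higher (adjusted p = 0.00479) and Six5 lower (adjusted p = 0.0104). That fit called 24.0% of all genes higher and 22.1% lower. Pbx3, Irx3 and Tbx18 were also called higher in it, and Tbx1, Irx2, Irx5, Pbx2 and Lhx8 lower.

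Of the Pax genes, the otic Pax2 was listed at 0 in all 6 libraries and Pax8, an early placode gene, was low, at 0.766, 0.367 and 0.608 CPM in libraries labelled Nrf2 KO, against 0.766, 0.472 and 0.335 CPM in control. Pax3, a gene of neural crest and of muscle precursors, had 12.8, 17.4 and 19.9 CPM in libraries labelled Nrf2 KO, against 18.5, 18.9 and 19.3 CPM in control, and the groups overlapped. Pax9, a gene of the pharyngeal pouches, teeth and palate, had 29.7, 18.1 and 19.9 CPM in replicates 1, 2 and 3 labelled Nrf2 KO, against 13.6, 11.1 and 12.6 CPM in control replicates 1, 2 and 3. Every library labelled Nrf2 KO was above control for Pax9, with a log2 fold change of 0.86 (SE 0.23, adjusted p = 0.0792) on group alone and 0.83 (SE 0.15, adjusted p = 0.0281) with the replicate block.

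The T-box genes held the most abundant member of all. Tbx18, a marker of otic mesenchyme, had 546, 164 and 173 CPM in replicates 1, 2 and 3 labelled Nrf2 KO, against 158, 94.3 and 112 CPM in control replicates 1, 2 and 3. All libraries labelled Nrf2 KO were above control replicates, narrowly for 2 of them, and the highest exceeded the others labelled Nrf2 KO by more than 3 times. Its log2 fold change came to 1.28 (SE 0.53, adjusted p = 0.198) on group alone and 1.07 (SE 0.26, adjusted p = 0.0509) with the block, so it did not pass in either fit. With both replicate 1 libraries left out Tbx18 was called higher (adjusted p = 0.00104). Tbx19, known as a regulator of corticotroph cells in the pituitary, had 8.08, 1.83 and 1.73 CPM in libraries labelled Nrf2 KO, against 1.66, 1.12 and 0.593 CPM in control. Its lowest library labelled Nrf2 KO lay just above the highest control. Tbx19 did not pass on group alone (adjusted p = 0.203) but passed with the block, at 1.53 (SE 0.36, adjusted p = 0.0483). It was also called higher with both replicate 1 libraries left out (adjusted p = 0.0281).

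Tbx2, which sets the inner hair cell fate in the mouse cochlea, had 0.990, 0.489 and 0.437 CPM in libraries labelled Nrf2 KO, against 1.76, 1.12 and 1.47 CPM in control. All libraries labelled Nrf2 KO were below control, with a log2 fold change of -1.20 (SE 0.41, adjusted p = 0.134) on group alone and -1.24 (SE 0.29, adjusted p = 0.0463) with the replicate block. Tbx1, a gene of the otic vesicle and pharyngeal arches, had 81.0, 35.5 and 40.4 CPM in libraries labelled Nrf2 KO, against 86.2, 64.2 and 76.4 CPM in control. Replicates 2 and 3 labelled Nrf2 KO were the lowest of the 6 libraries, and the adjusted p was 0.404, or 0.0910 with the block. With both replicate 1 libraries left out Tbx1 was called lower (adjusted p = 0.000695). Tbx15, a gene of limb and skeletal mesenchyme, was level, at 10.3, 12.3 and 11.4 CPM in libraries labelled Nrf2 KO, against 10.4, 11.3 and 10.5 CPM in control. Tbx6, a gene of the presomitic mesoderm, was low in all libraries, at 0.204 to 0.638 CPM, with an adjusted p of 0.130.

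Among LIM homeobox and Iroquois genes, 0 of 8 passed on group alone. Lhx9, a gene of the gonad and limb, had 5.01, 1.55 and 1.99 CPM in replicates 1, 2 and 3 labelled Nrf2 KO, against 1.10, 0.495 and 0.645 CPM in control replicates 1, 2 and 3. The groups did not overlap, and the fitted log2 value was 1.93 (SE 0.57, adjusted p = 0.0957) on group alone and 1.84 (SE 0.25, adjusted p = 0.0142) with the block. Lhx2, a gene of the eye field, forebrain and hair follicle, had 31.3, 25.8 and 24.7 CPM in libraries labelled Nrf2 KO, against 21.8, 22.5 and 23.1 CPM in control, again without overlap but with an adjusted p of 0.330. Lhx3, Lhx6 and Lhx8 were all under 2 CPM in every library and none passed. Lhx8 had 0.192, 0.163 and 0.219 CPM in libraries labelled Nrf2 KO, against 0.408, 0.382 and 0.670 CPM in control. Its groups did not overlap (adjusted p = 0.0858), but it met the limit for expression only through the control libraries. Irx5, the highest Iroquois gene by FPKM, had 82.9, 32.8 and 43.0 CPM in libraries labelled Nrf2 KO, against 74.1, 50.9 and 60.1 CPM in control, with overlap. Irx3, which lies in the same gene cluster, had 45.3, 52.2 and 57.5 CPM in libraries labelled Nrf2 KO, against 41.5, 42.7 and 40.8 CPM in control, where the libraries labelled Nrf2 KO were all higher, and Irx2 had 36.7, 22.9 and 27.0 CPM in libraries labelled Nrf2 KO, against 39.8, 35.5 and 38.6 CPM in control. The adjusted p was 0.257 for Irx3 and 0.302 for Irx2.

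**Figure D5:**
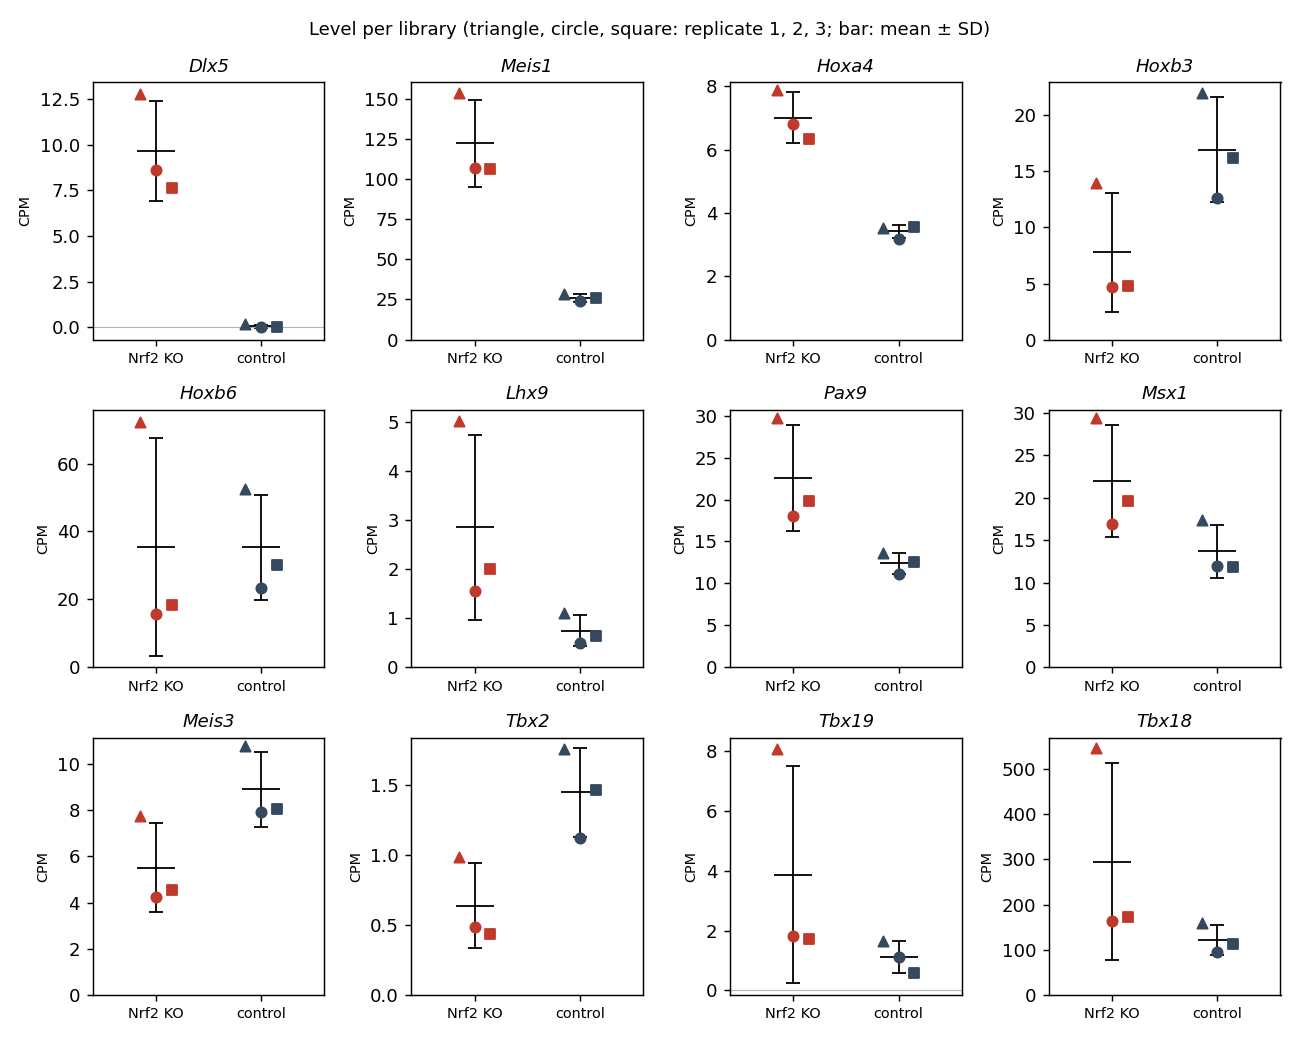
CPM per library of 12 members, libraries labelled Nrf2 KO in red left of control in dark blue, with replicates 1, 2 and 3 as triangle, circle and square and the mean ± SD in black; each panel has its own vertical scale. Groups overlap for Hoxb3, Hoxb6 and Msx1 and not for the other 9 members, and the triangle is the highest point of both groups for Meis1, Dlx5, Hoxb3, Hoxb6, Lhx9, Pax9, Msx1, Meis3, Tbx2, Tbx19 and Tbx18.

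Ordered by FPKM in the authors' deposited table, Tbx18 (52.9 and 21.5 FPKM, labelled Nrf2 KO and control), Pbx3 (42.7 and 30.1) and Meis1 (38.5 and 8.16) were the highest 3 members in the group labelled Nrf2 KO. In control Pbx3 stood above Irx5 and Irx5 above Tbx18. Meis1 was not next after Tbx18 there, as several members stood between them, among them Pbx2 (19.9), Tbx1 (19.6) and Hoxb6 (15.9). These are 1 value per group, so neighbours in the order cannot be told apart.

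Promoter windows, 250 bases before to 50 bases after a transcript start, were read from RefSeq (GRCm38.p6) for members that passed in either fit. The table gives one for 6 of these 11 members and for 31 of the 47 expressed members. Shown are Meis1, as the call that held in each fit with a library left out, and Lhx9, Msx1 and Pax9, as those of the 11 whose window held a searched motif, written 5′ to 3′ on the strand of the gene with motif letters in capitals. The motifs, searched on both strands, were TGACAG, bound by MEIS proteins, TGATNNAT, bound by PBX and HOX together, and TGACNNNGC, the core of the antioxidant response element that NRF2 binds. Where TGACAG is followed by a base and GC, it is also part of TGACNNNGC.
Meis1: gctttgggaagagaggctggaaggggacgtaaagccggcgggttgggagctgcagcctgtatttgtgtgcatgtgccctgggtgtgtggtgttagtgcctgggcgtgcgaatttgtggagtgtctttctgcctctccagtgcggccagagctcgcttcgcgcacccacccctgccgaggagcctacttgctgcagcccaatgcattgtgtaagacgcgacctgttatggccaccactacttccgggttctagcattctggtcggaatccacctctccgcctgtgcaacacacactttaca
Lhx9: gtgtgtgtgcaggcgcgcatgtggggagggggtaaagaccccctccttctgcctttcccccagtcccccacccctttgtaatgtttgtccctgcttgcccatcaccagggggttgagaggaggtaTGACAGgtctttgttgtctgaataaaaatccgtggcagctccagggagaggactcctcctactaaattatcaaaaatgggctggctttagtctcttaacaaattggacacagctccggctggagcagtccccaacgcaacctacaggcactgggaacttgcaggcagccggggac
Msx1: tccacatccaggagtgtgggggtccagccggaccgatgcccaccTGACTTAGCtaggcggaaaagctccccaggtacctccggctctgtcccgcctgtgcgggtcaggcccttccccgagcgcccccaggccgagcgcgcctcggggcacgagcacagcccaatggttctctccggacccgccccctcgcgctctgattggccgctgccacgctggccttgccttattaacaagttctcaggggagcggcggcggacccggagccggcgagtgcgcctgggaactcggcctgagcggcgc
Pax9: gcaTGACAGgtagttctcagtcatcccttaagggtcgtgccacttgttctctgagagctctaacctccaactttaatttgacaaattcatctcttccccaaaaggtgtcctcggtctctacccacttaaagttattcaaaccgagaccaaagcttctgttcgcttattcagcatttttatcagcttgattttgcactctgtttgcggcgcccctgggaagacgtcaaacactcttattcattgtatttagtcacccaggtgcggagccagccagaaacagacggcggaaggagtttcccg

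The Meis1 window (chr11:19018920-19019219, minus strand) held none of the 3 motifs in these letters. Lhx9 (chr1:138842395-138842694, minus strand) and Pax9 (chr12:56695221-56695520, plus strand) each held 1 copy of TGACAG, starting 125 and 247 bases before the transcript start. Msx1 (chr5:37824536-37824835, minus strand) held TGACTTAGC, a match to TGACNNNGC, 206 bases before the start. Over the 38 windows of these 31 expressed members, some of which have more than 1 start, 8 held TGACAG, 6 held TGACNNNGC and 2 held TGATNNAT, where 19.2%, 12.4% and 8.85% of all 32851 windows did. The windows describe sequence only, and binding was not measured.

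Regulators that act on or beside these families were read from lists in the same fit. It called 4.83% of all tested genes higher and 3.45% lower, or 10.4% and 7.92% with the replicate block. Of 30 tested Polycomb and trithorax genes, which silence or maintain Hox clusters, 2 were higher and 0 lower, with a median log2 fold change of -0.03. Ezh2, the catalytic subunit of the silencing complex PRC2, had 304, 271 and 265 CPM in libraries labelled Nrf2 KO, against 130.1, 151 and 141 CPM in control, a log2 fold change of 1.00 (SE 0.15, adjusted p = 0.0147) with no overlap. Phf19, an accessory PRC2 protein, had 40.0, 45.7 and 48.5 CPM in libraries labelled Nrf2 KO, against 28.6, 26.7 and 26.1 CPM in control, a log2 fold change of 0.72 (SE 0.15, adjusted p = 0.0320). Of 10 tested genes of retinoic acid metabolism and signalling, the vitamin A pathway that induces low-numbered Hox genes, 1 was higher and 0 lower, and 2 and 2 passed with the replicate block. The higher gene was Rarb, a retinoic acid receptor, at 1.82, 1.98 and 1.92 CPM in libraries labelled Nrf2 KO, against 0.255, 0.517 and 0.258 CPM in control, with a log2 fold change of 2.45 (SE 0.37, adjusted p = 0.0135).

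Of 32 otic placode and patterning factors outside the families, 20 were listed at 0 in all libraries and 6 could be tested. Of these, Sox9 and Gata3 were higher and 0 lower, and 3 and 0 passed with the replicate block. Gata3, a zinc finger factor of the otic placode and hair cells, had 8.84, 4.32 and 4.84 CPM in libraries labelled Nrf2 KO, against 1.91, 0.742 and 1.47 CPM in control, a log2 fold change of 2.12 (SE 0.46, adjusted p = 0.0438). Sox9, an early otic factor, had 48.8, 29.6 and 31.4 CPM in libraries labelled Nrf2 KO, against 9.80, 6.70 and 7.55 CPM in control, a log2 fold change of 2.19 (SE 0.27, adjusted p = 0.00810). Of 14 tested mesenchymal patterning factors, 5 were lower and 0 higher, and 5 and 3 passed with the block, beside a median log2 fold change of -0.46. Over all tested genes 3.45% were called lower and 4.83% higher, or 7.92% and 10.4% with the block. Foxc2, a forkhead factor of mesoderm, had 0.0638, 0 and 0.0486 CPM in libraries labelled Nrf2 KO, against 1.20, 1.33 and 1.26 CPM in control. Scx, a tendon factor, had 2.46, 1.67 and 1.70 CPM in libraries labelled Nrf2 KO, against 7.50, 5.51 and 7.45 CPM in control, and Twist2, a factor of dermal mesenchyme, had 5.59, 5.70 and 6.08 CPM in libraries labelled Nrf2 KO, against 10.8, 11.4 and 12.2 CPM in control. The groups did not overlap for any of these 3 genes, and their adjusted p were 0.00896, 0.0131 and 0.0206. Foxc2 passed the count filter only through the control libraries, so its lack of overlap follows from that filter.

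These calls depended on the libraries used, as did most calls over all genes. Fits without 1 library other than Nrf2 KO replicate 1 kept 195 to 379 of 1211 calls. Ezh2, Phf19, Gata3 and Twist2 lost the call without any 1 of Nrf2 KO replicates 2 and 3 and control replicates 1, 2 and 3. Rarb and Scx lost it without Nrf2 KO replicate 2 or 3 or control replicate 1 or 3, and Sox9 and Foxc2 without control replicate 2 or 3. The highest adjusted p in those fits was 0.211 for Phf19 and 0.0643 for Sox9, and all 8 passed without Nrf2 KO replicate 1.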

How the data were processed

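RNA of 6 poly(A)-selected libraries was measured, 3 of genotype Nrf2 knockout and 3 of genotype WT. Per the submitters' processing notes fastp, FastQC, HISAT2 and DESeq2 1.34.0 were used on build hg18, in roles that are not stated. No source used here names the tool that counted reads, its strand option or the gene models. The authors deposited whole-number, unnormalised counts per gene symbol for each library. Their other deposited table holds 1 FPKM value per gene and group. Symbols follow rat nomenclature (650 begin with RGD and 1202 with Olr), although the labels give mouse cells, and all 101 members are also current mouse symbols. If mouse reads were counted on rat gene models, some genes would lose more reads than others, so levels of different genes are less comparable than 1 gene's ratio between groups.

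The test was run in edgeR 4.0.16 (R 4.3.3), with low genes removed by filterByExpr at its defaults of 10 counts and a total of 15, TMM scaling, and the robust quasi-likelihood test with group as the only term, two-sided, with Benjamini-Hochberg adjustment over 14618 genes and a threshold of 0.05. SE is the log2 fold change divided by the root of the F statistic. Adjusted p-values are edgeR's except where DESeq2 or limma-voom is named. The fit was tested on simulated counts. Alternatives were other scalings and filters, DESeq2 1.42.0, limma-voom (limma 3.58.1), the replicate number as a block, and fits without single libraries or without both replicate 1 libraries. The labels do not say what a replicate number marks. The deviations of same-numbered libraries from their group means correlated across genes at 0.754, 0.696 and 0.310 for numbers 1, 2 and 3, all above the limit of 0.1, so the numbers were treated as pairs, a choice that rests on the counts and not on the labels. Unlike numbers also went together outside replicate 1: Nrf2 KO replicate 3 correlated at 0.539 with control replicate 2, above its value with its own number, and Nrf2 KO replicate 2 at 0.278 with control replicate 3. With replicate 1 apart in both groups, deviations from a group mean make numbers 2 and 3 go together in any order. The limit of 0.1 therefore cannot show that number 2 pairs with 2 or number 3 with 3. No pair of libraries in a group differed by as little as sampling noise (smallest chi-square per degree of freedom 14.3).

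Members, lists and tests were chosen with earlier results of these data known. Any expressed member may be named, with values per library for those called in either fit and for the highest of each family. Some expressed members enter the counts, medians and tests but are not reported by name or value here. From each list of regulators up to 3 called genes with the smallest p are named, or the gene with the highest mean CPM where none was called. Kdm6a, Krt8, Krt18, Sox2, Atoh1 and Slc26a5, listed at 0, were named after their values were seen.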

Additional observations from a re-analysis of the deposited data

How the results depend on the processing

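Over all genes, 706 were higher and 505 lower. DESeq2 called 1420 and 1107, the replicate block 1520 and 1158, and the fit with both replicate 1 libraries left out 3540 and 3253. Fits without 1 library gave 139 to 2323 higher and 57 to 2162 lower, the most without Nrf2 KO replicate 1 and the fewest without control replicate 3. Members called numbered 4 higher and 0 lower. They were 8 and 0 by DESeq2, which tests Hoxc11 as well, 8 and 3 with the replicate block, 12 and 12 with both replicate 1 libraries left out, and 1 to 9 higher and 0 to 9 lower without 1 library, again the most without Nrf2 KO replicate 1 and the fewest higher without control replicate 3. The other scalings and filters and limma-voom kept 4 and 0.

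Nfe2l2 (1.49) lost its call with upper-quartile scaling (1.45) and library size alone (1.50), and its log2 fold change without 1 library ran from 1.15 to 1.71, passing only without Nrf2 KO replicate 1 among those 6 fits. Members outside the calls changed sign in some fits. Hoxb6 (0.00) turned to -0.038 with upper-quartile scaling, -0.030 with no low-count filter, -0.32 by limma-voom, -0.28 with the replicate block and -0.65 with both replicate 1 libraries left out, the last with an adjusted p of 0.00903 by edgeR. Dlx1 (0.45) was -0.19 and Eya3 (-0.10) was 0.038 with both replicate 1 libraries left out. Without 1 library the log2 fold change ran from -1.07 to 0.41 for Hoxb6, from -0.40 to 0.76 for Dlx1, from -0.19 to 0.032 for Eya3 and from -0.71 to 0.026 for Irx5, with the changes of sign in Dlx1 and Eya3 without Nrf2 KO replicate 1, in Irx5 without Nrf2 KO replicate 2, and in Hoxb6 without Nrf2 KO replicate 1 or control replicate 2 or 3. The cause was not tested. Gata3 lost its call with library size alone and upper-quartile scaling, and Phf19 with no low-count filter. The replicate block ended no call among the genes named here. Members under 1 CPM, such as Hoxb2, Hoxb7, Lhx3 and Lhx8, rest on few counts, and differences there may not be detectable at this depth.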
